A study of Mus musculus with 6 samples.

Results

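miR-192 and miR-194 are microRNAs (miRNAs) abundant in liver and gut, and 1 of their gene clusters encodes both. They were picked by name from a quantitative PCR panel, and they are 2 of its 380 named miRNAs and 2 of the 123 that gave a threshold cycle in all 6 samples. The RNA was taken from exosomes of mouse serum, membrane vesicles shed by many tissues. All mice were sampled 2 weeks after ACLT, an abbreviation the labels leave unexplained and which commonly stands for transection of the anterior cruciate ligament, a surgical model of joint injury. The Vehicle group has 3 samples, of mice treated with vehicle alone, and the OCExoInhib group has 3, of mice treated with OCExoInhib. What the name stands for is not in the labels; the published work is known to use it for a compound that blocks exosomes of osteoclasts, the cells that resorb bone. Strain, sex, age and dose are not in the labels. The design text speaks of equal amounts pooled from 3 mice per group, so the samples of a group may be single mice or repeat runs of 1 pool, and the spread that the p-values use may be technical only.

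A miRNA is cut from a hairpin precursor and guides a silencing complex to messenger RNAs that match its seed, the bases 2 to 8 of the mature strand. In hepatocytes and the intestinal epithelium the genes of miR-192 and miR-194 are driven by the hepatocyte nuclear factors HNF1 and HNF4, and p53 can also induce them. Both are widely used as circulating markers of liver injury. Because their hairpins lie on a common primary transcript, they are usually described as made together. Mature levels can still differ, through processing, turnover and, outside the cell, sorting into vesicles.

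The mature sequences on the panel are shown first because they separate the 2 members by target class and tie miR-192 to a further miRNA, miR-215. They are as deposited, identical to RefSeq mature sequences of the -5p arms, and the capitals mark the seed.
miR-192: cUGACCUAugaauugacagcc
miR-215: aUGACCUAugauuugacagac
miR-194: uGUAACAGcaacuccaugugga
miR-192 and miR-215 share the seed UGACCUA, and no other miRNA of the panel has it. Counted from the 5′ end, miR-215 differs from miR-192 by C1A, A12U and C20A, so 18 of 21 bases are the same. The seed GUAACAG of miR-194 occurs in no other miRNA of the panel. Whether the assays tell miR-192 from miR-215 was not tested.

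The hairpins are shown because miR-194 has more than 1 gene, which limits what its level says about the cluster with miR-192. Sequences and positions are from RefSeq on GRCm38.p6, all on the plus strand, and the capitals mark the mature strand measured here.
Mir194-2 (chr19:6264643-6264728): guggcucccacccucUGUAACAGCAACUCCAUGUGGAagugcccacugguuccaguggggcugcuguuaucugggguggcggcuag
Mir192 (chr19:6264844-6264932): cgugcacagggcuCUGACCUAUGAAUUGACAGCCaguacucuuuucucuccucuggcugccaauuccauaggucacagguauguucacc
Mir194-1 (chr1:185313319-185313385): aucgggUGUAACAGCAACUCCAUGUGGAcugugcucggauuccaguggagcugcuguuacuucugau
Mir215 (chr1:185313581-185313692): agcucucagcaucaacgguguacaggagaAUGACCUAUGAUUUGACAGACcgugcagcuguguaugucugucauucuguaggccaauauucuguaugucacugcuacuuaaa
On chromosome 19 the hairpins of Mir194-2 and Mir192 are 115 bases apart, outside the annotated spans of their neighbours Atg2a and Gm14963. On chromosome 1 those of Mir194-1 and Mir215 are 195 bases apart, inside the span of Iars2, which encodes a mitochondrial isoleucyl-tRNA synthetase. Both miR-194 genes give the same mature strand, so its Ct cannot be split between the clusters.

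The values are threshold cycles (Ct), the PCR cycle at which a well's fluorescence crosses a set level. A lower Ct is more template, and 1 cycle is about 1 doubling. The deposited normalized value is the Ct of the miRNA minus the mean Ct of the wells P21, P22 and P23, and its sign is turned here to give a log2 level. Of the 123 miRNAs with a Ct, 108 to 117 per sample lay under Ct 35, and the median Ct was 26.7 to 28.2 in Vehicle and 29.2 to 29.6 in OCExoInhib samples. The 115 with a Ct under 35 in at least 3 samples were tested with limma, which adjusts p-values over all 115. Relative to Vehicle, 27 of them (23.5%) passed an adjusted p of 0.05, 20 lower in OCExoInhib (17.4%) and 7 higher (6.09%). The split was 9 lower and 7 higher under quantile normalization, and 11 lower and 57 higher when each sample was centred on its median. Without normalization, the median log2 difference of the 115, OCExoInhib minus Vehicle, was 0.183. The later median Ct of the OCExoInhib samples is thus not a later Ct of the typical miRNA. The mean Ct over the reference wells was 30.9 ± 0.318 for Vehicle and 30.2 ± 0.531 for OCExoInhib (SD, n = 3 each). Haemolysis could not be read from the usual ratio of miR-451 to miR-23a, since miR-451, the main red cell miRNA, had no Ct in any sample.

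miR-194 was lower in every OCExoInhib sample than in every Vehicle sample, and miR-192 was at a similar mean level in both groups. The fall of miR-194 was 38.7-fold, while the fitted change of miR-192 was close to 0 with a wide interval. So 1 of the 2 members passed the test, beside 17.4% of all tested miRNAs that fell.

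The raw Ct of miR-194 was 27.237, 25.965 and 26.298 in Vehicle samples 1, 2 and 3. In OCExoInhib samples 1, 2 and 3 it was 32.705, 32.135 and 28.308. The groups did not overlap, but in raw Ct OCExoInhib sample 3 lay much closer to the Vehicle samples than to the other OCExoInhib samples. As a log2 level it was less close to Vehicle, at 1.29, between −1.51 in OCExoInhib sample 2 and 3.76 in Vehicle sample 1. All 6 values were below Ct 35, the limit set here for testing. How many template molecules they stand for was not tested. Groups that did not overlap, with OCExoInhib lower, were found for 20.0% of tested miRNAs.

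As log2 levels relative to the reference wells, miR-194 stood at 4.42 ± 0.591 for Vehicle and −0.86 ± 1.91 for OCExoInhib (SD, n = 3 each). The log2 difference, OCExoInhib minus Vehicle, was −5.27 (SE 0.93, 95% interval −7.26 to −3.29, limma adjusted p 0.000296). As a fold this is 38.7 times lower, with an interval of 9.79 to 152.9. The log2 difference was −6.35 without OCExoInhib sample 3 and −4.52 without OCExoInhib sample 1, and the unmoderated equal-variance model did not call it (Benjamini-Hochberg adjusted p 0.0621). The authors' deposited table gives Vehicle over OCExoInhib as 38.693 for miR-194, the same value. An exact two-sided permutation test gave p 0.1, the smallest that 3 samples against 3 allow. The difference was the seventh largest fall of the 115. Its spread among OCExoInhib samples, an SD of 1.91, was also the seventh largest of the 115, against a median SD of 0.876.

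The raw Ct of miR-192 was 25.956, 23.319 and 25.847 in Vehicle samples 1, 2 and 3. In OCExoInhib samples 1, 2 and 3 it was 24.046, 24.238 and 25.147. The groups overlapped, with the lowest Ct in Vehicle sample 2 and the OCExoInhib values between it and the other Vehicle values.

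The log2 level of miR-192 was 5.88 ± 1.20 for Vehicle and 5.72 ± 1.09 for OCExoInhib (SD, n = 3 each). The log2 difference was −0.16 (SE 0.87, 95% interval −2.00 to 1.68, limma adjusted p 0.90). The interval holds changes from 4.01-fold lower to a rise of 1.68 on the log2 scale, so a moderate change in either direction was not detectable with these samples. The authors' deposited table gives 1.118 for Vehicle over OCExoInhib. The sign of this small difference is not settled, since it was 1.02 with global mean normalization and −0.58 without Vehicle sample 1. Against the median log2 difference of all 115 miRNAs, −0.54, miR-192 stood at 0.38 and miR-194 at −4.73. The median itself depends on the scaling, and was 0.64 with global mean normalization and 1.98 with each sample centred on its median. Under that centring miR-192 was called higher, by 2.37 (limma adjusted p 0.0282), and the log2 difference of miR-194 was −2.75 (limma adjusted p 0.0215).

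**Figure D1:**
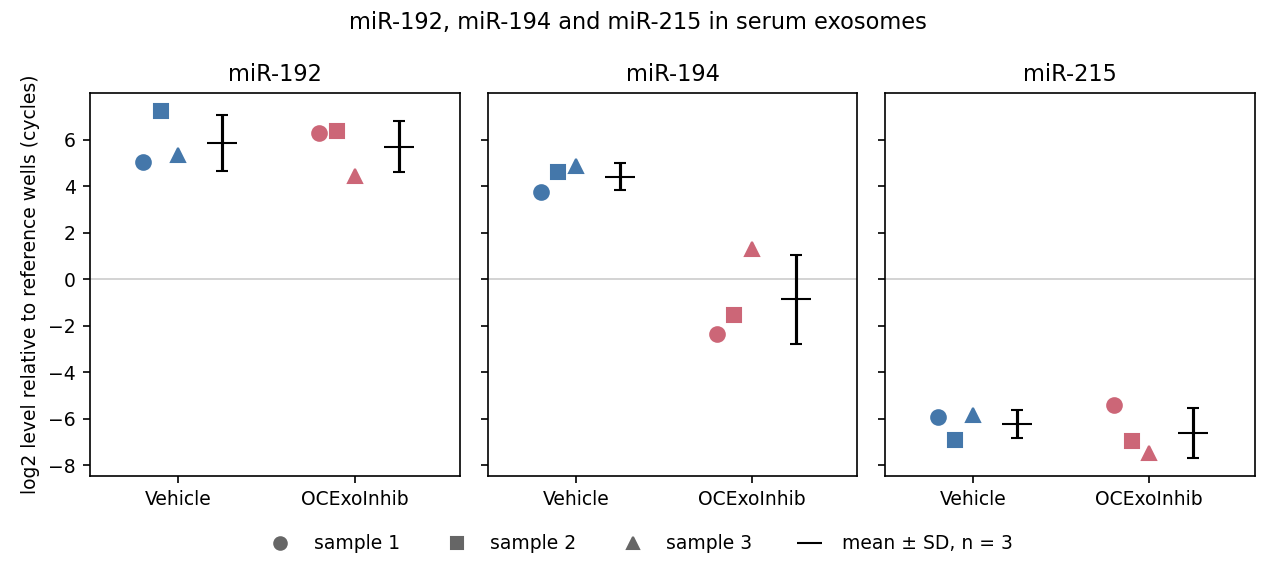
Log2 level relative to the mean of the reference wells (vertical axis, in cycles) for miR-192, miR-194 and miR-215 in each sample, with Vehicle in blue and OCExoInhib in red, marker shapes for sample numbers, and black bars for mean ± SD (n = 3). Vehicle and OCExoInhib overlap for miR-192 and miR-215, and for miR-194 the OCExoInhib values lie from −2.36 to 1.29, below the Vehicle values from 3.76 to 4.89.

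Since the members come partly from a common transcript, their difference within each sample was also compared, which needs no reference well. miR-194 had a later Ct than miR-192 in all 6 samples. The gap was 1.281, 2.646 and 0.451 cycles in Vehicle samples 1, 2 and 3. It was 8.659, 7.897 and 3.161 cycles in OCExoInhib samples 1, 2 and 3. The groups did not overlap, but the OCExoInhib sample 3 gap was close to that of Vehicle sample 2.

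The mean gap was 1.46 ± 1.11 cycles for Vehicle and 6.57 ± 2.98 cycles for OCExoInhib (SD, n = 3 each). miR-194 thus fell by 5.11 on the log2 scale relative to miR-192 (SE 1.22, 95% interval −7.52 to −2.71, limma adjusted p 0.000304 over the other 114 miRNAs), and the exact two-sided permutation p was 0.1. In that fit 13.2% of the 114 miRNAs were called lower relative to miR-192, and for 16.7% the OCExoInhib samples all lay below the Vehicle samples. The call rests on the spread that limma shares across miRNAs. Without that moderation the SE was 1.83 and the Benjamini-Hochberg adjusted p of the unmoderated equal-variance model was 0.261. Without OCExoInhib sample 3 the difference was −6.82, and without OCExoInhib sample 1 it was −4.07.

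**Figure D2:**
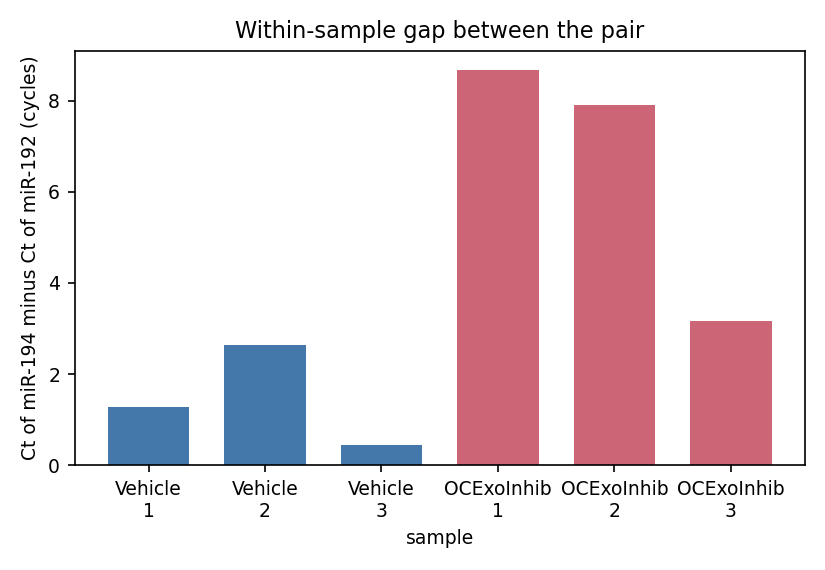
Raw Ct of miR-194 minus raw Ct of miR-192 within each sample (vertical axis, in cycles; 1 bar per sample, Vehicle in blue, OCExoInhib in red). The Vehicle bars reach from 0.451 to 2.646 cycles and the OCExoInhib bars from 3.161 to 8.659.

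The place of the members among all measured miRNAs moved in the same way. Ranked by raw Ct among the 123, lowest first, miR-194 was 46th, 51st and 43rd in Vehicle samples 1, 2 and 3. It was 104th, 99th and 53rd in OCExoInhib samples 1, 2 and 3. miR-192 ranked from 11th to 33rd in Vehicle and from 12th to 22nd in OCExoInhib samples. miR-192 thus stayed in the early part, and miR-194 went from the middle of the panel to the late part in all but OCExoInhib sample 3. Such ranks set different assays side by side, whose efficiencies no label states, so only the shift between groups can be read.

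miR-215, the seed partner of miR-192 from the cluster on chromosome 1, was near the limit of the assay. Its raw Ct was 36.889, 37.474 and 37.001 in Vehicle samples 1, 2 and 3, and 35.752, 37.594 and 37.077 in OCExoInhib samples 1, 2 and 3. All 6 values were later than Ct 35, so it was left out of the test, and the groups overlapped. It came 10.933 to 14.155 cycles after miR-192, whose sequence it shares but for 3 bases. Its log2 level was −6.20 ± 0.609 for Vehicle and −6.61 ± 1.08 for OCExoInhib (SD, n = 3 each; exact permutation p 0.6, two-sided). The authors' deposited table gives 1.33 for Vehicle over OCExoInhib.

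**Figure D3:**
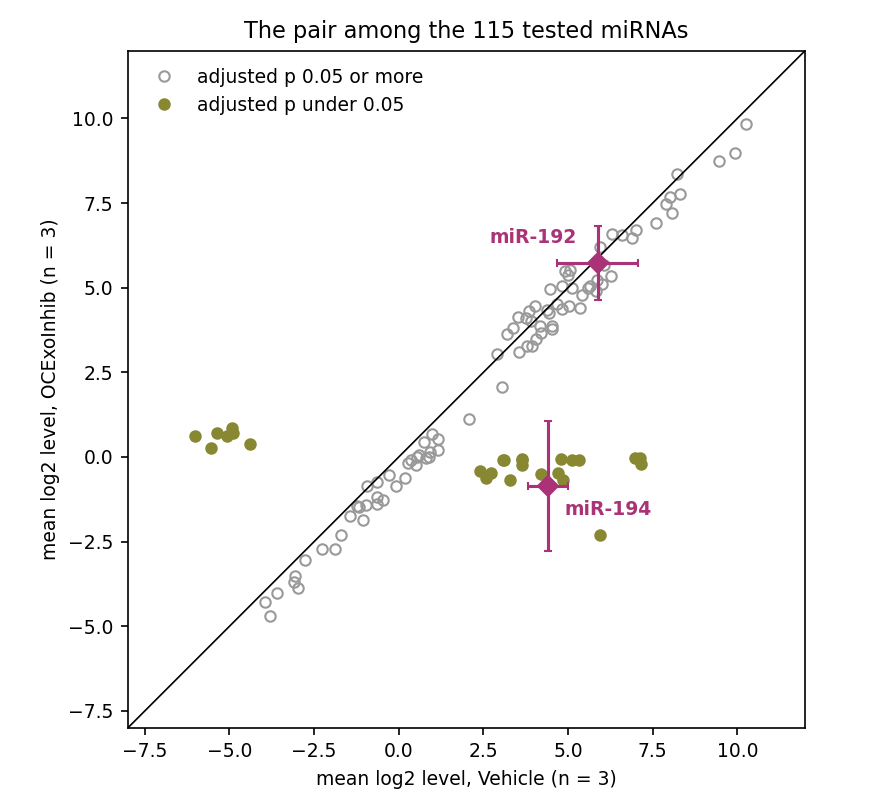
Mean log2 level in OCExoInhib (vertical axis) against Vehicle samples (horizontal axis) for the 115 tested miRNAs, with filled circles for limma adjusted p under 0.05, open circles for the rest, the diagonal of equal levels, and miR-192 and miR-194 as diamonds with SD bars (n = 3). miR-192 lies on the diagonal among the open circles, and miR-194 lies below it, with a log2 difference of −5.27, at the lower edge of a flat band of called miRNAs around an OCExoInhib level of 0.

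The other miRNAs that passed had mean OCExoInhib levels from −0.69 for miR-652 to 0.87 for miR-140, apart from miR-107 at −2.31. miR-194, at −0.86, was below all of them but miR-107. Their Vehicle levels were spread more widely, from 2.41 for miR-133a to 7.15 for miR-30d among those that fell, with miR-194 at 4.42. The single OCExoInhib levels of miR-194 were −2.36, −1.51 and 1.29, on both sides of 0, the level of the reference wells. Of the 88 miRNAs that did not pass, 16 also had a mean OCExoInhib level between −0.86 and 0.87.

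The Ct values of miR-194 also held differences between samples of a group that recurred in other miRNAs to within 0.0015 cycles. Its Ct in Vehicle sample 1 minus Vehicle sample 3 was 0.939 cycles, and 16 other miRNAs had that difference. Its Ct in OCExoInhib sample 1 minus OCExoInhib sample 2 was 0.570 cycles, which 9 other miRNAs had. Of these, let-7e, miR-145, miR-21, miR-30a and miR-378 had both differences, as miR-194 did. For let-7e and miR-145 the raw Ct itself was the same in OCExoInhib samples 1, 2 and 3, at 31.087, 30.517 and 29.201. The OCExoInhib values of let-7e and miR-145 therefore cannot be read as separate measurements. miR-151-3p, which also had the 0.570 difference, shared their OCExoInhib mean log2 level of −0.075 and SD of 0.591361. Among the tested miRNAs, 23 carried a difference that at least 4 others had, and 22 of these passed the test, 19 of them lower. The part of these recurring values in the fall of miR-194 was not tested.

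miR-192 carried no such recurring difference. At most 1 other miRNA had its raw Ct difference in any pair of samples of a group, miR-92a for Vehicle samples 1 and 2 and miR-425 for OCExoInhib samples 1 and 2. In raw Ct within a group, 0 other miRNAs shared the differences of miR-194 that involve Vehicle sample 2 or OCExoInhib sample 3. On the log2 scale, relative to the reference wells, the Vehicle levels of miR-194 had an SD of 0.591361. The same SD recurred in the OCExoInhib levels of miR-145, and likewise for miR-151-3p and let-7e. Vehicle sample 2 of miR-194 therefore cannot be taken as free of recurring values. How far its Vehicle levels follow such a pattern was not tested. With Vehicle samples 1 and 3 averaged and counted as 1 sample, the log2 difference of miR-194 was −5.32 (limma adjusted p 0.00511). This setting leaves Vehicle sample 2 and the OCExoInhib samples unchanged, so it does not remove the recurring values. Its adjusted p still counts such values as separate samples.

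The miRNAs most like each member were those with the smallest root mean square difference of Ct over the 6 samples, each miRNA first centred on its own mean Ct. For miR-194 these were miR-378, at 0.365 cycles, miR-30a, at 0.732 cycles, and let-7e, at 0.849 cycles, against a median of 2.83 cycles over all others. miR-378 is encoded in an intron of Ppargc1b, miR-30a belongs to the miR-30 family, and let-7e to the let-7 family.

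Their seeds are shown to compare them with GUAACAG of miR-194, again in capitals.
miR-378: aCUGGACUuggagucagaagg
miR-30a: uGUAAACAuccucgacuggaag
let-7e: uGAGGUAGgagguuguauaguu
None of these seeds is that of miR-194. The Ct of miR-378 was 27.187, 25.243 and 26.248 in Vehicle and 32.050, 31.480 and 28.506 in OCExoInhib samples 1, 2 and 3. As for miR-194, OCExoInhib sample 3 was the one nearest to the Vehicle samples. miR-378, miR-30a and let-7e fell, with log2 differences of −5.18, −3.98 and −5.18 (limma adjusted p 0.000193, 0.00255 and 7.6e-05). All 3 share both recurring differences with miR-194, so their likeness rests in part on those. The call of miR-30a was lost with global mean, quantile, no normalization and median centring (limma adjusted p 0.0638, 0.266, 0.0639 and 0.138).

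For miR-192 the most like were miR-501-5p, at 0.506 cycles, miR-463, at 0.569 cycles, and miR-467a, at 0.584 cycles, against a median of 1.19 cycles over all others. miR-501-5p and miR-463 are encoded on the X chromosome, and miR-467a in the large Sfmbt2 cluster. Their log2 differences were −0.55, 0.13 and 0.60 (SE 0.80, 0.77 and 0.90), and none passed the test (limma adjusted p 0.866, 0.90 and 0.866). In Vehicle samples 1, 2 and 3 the Ct of miR-463 was 27.070, 26.041 and 27.940, with sample 2 the earliest of the Vehicle samples, as for miR-192.

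**Figure D4:**
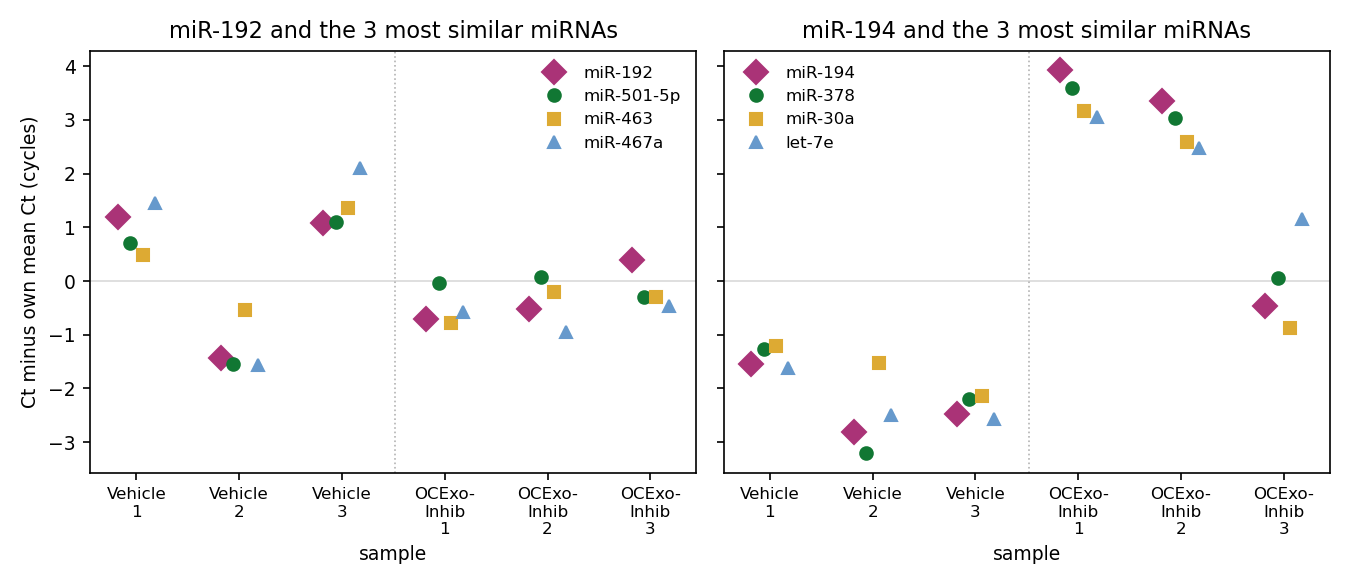
Raw Ct minus each miRNA's own mean Ct (vertical axis, in cycles) in the 6 samples, for miR-192 (left) and miR-194 (right) as diamonds, each with its 3 most similar miRNAs as circles, squares and triangles. On the right all 4 miRNAs are low in Vehicle and high in OCExoInhib samples 1 and 2, and on the left Vehicle sample 2 is the lowest for every miRNA but miR-463, whose lowest is OCExoInhib sample 1.

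Other miRNAs known from liver were measured in part. Of 8 listed liver miRNAs on the panel, 5 had a Ct and 4 were tested. miR-194 and miR-148a fell, and miR-192 and miR-193 did not pass, beside 17.4% of all tested miRNAs called lower. Both that fell carry a recurring Ct difference. miR-122, the dominant miRNA of hepatocytes, had no Ct in any sample, nor had miR-101a and miR-101b.

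The raw Ct of miR-148a, abundant in hepatocytes and also known to promote osteoclast differentiation, was 25.377, 21.572 and 24.439 in Vehicle and 30.281, 30.408 and 29.949 in OCExoInhib samples 1, 2 and 3. The groups did not overlap, and the OCExoInhib samples lay close together. Its log2 difference was −7.14 (SE 0.89, limma adjusted p 3.6e-05). miR-193 had a log2 difference of −0.55 (SE 0.75, limma adjusted p 0.866). The median over the 4 tested liver miRNAs was −2.91, against −0.54 over all 115. These are serum vesicles, not tissue, and fewer vesicles from a cell type cannot be told apart from less of a miRNA per vesicle.

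Among miRNAs of the gut epithelium, miR-194 was the only 1 of 6 tested that passed, a share close to the 17.4% of all tested miRNAs called lower. The others were miR-192 and 4 members of the miR-200 family, which maintains epithelial identity by restraining Zeb1 and Zeb2. miR-200a, miR-200b, miR-200c and miR-141 had log2 differences of −0.53, −0.29, −0.30 and 0.43 (SE 0.80, 0.79, 1.09 and 0.89). Their groups overlapped in every case. miR-375 and miR-429 had no Ct, and miR-215 was later than Ct 35 throughout. The median of the 6 was −0.29, against −0.54 over all 115. In gut smooth muscle miR-143 and miR-145 come from 1 cluster, as miR-192 and miR-194 do. Here miR-145 fell by 3.20 (SE 0.76, limma adjusted p 0.00379) and miR-143 had no Ct. The fall of miR-145 was not called with global mean, quantile or median centring (limma adjusted p 0.0831, 0.418 and 0.436). It also rests on recurring values, since miR-145 had the same raw Ct as let-7e in every OCExoInhib sample.

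Of 11 listed miRNAs known to respond to p53, the tumour suppressor that also induces miR-192 and miR-194, 9 were tested. Of these, 5 fell, 1 rose and 3 did not pass, beside 17.4% and 6.09% of all tested miRNAs. Those that fell were miR-194, miR-107 (log2 difference −8.25, SE 1.38), miR-145, miR-15a (−4.70, SE 0.95) and miR-16 (−5.41, SE 0.88). miR-34a, the best known p53 target among miRNAs, rose by 6.07 (SE 1.01, limma adjusted p 0.000193) from Vehicle values of which 2 were later than Ct 35. miR-192, miR-34c and miR-34b-5p did not pass. All 6 that passed carry a recurring Ct difference, and miR-15a was not called with quantile normalization (limma adjusted p 0.0917). The median of the 9 was −3.20.

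Markers of other sources of serum RNA were mostly without a Ct. Of 4 erythrocyte miRNAs, miR-451 and miR-486 had none, miR-16 fell and miR-144 did not pass. Of 6 leukocyte and platelet miRNAs, 4 had no Ct, miR-223 was late and miR-150 did not pass. Of 4 muscle miRNAs, miR-1 and miR-133b had no Ct, miR-133a fell and miR-206 did not pass. Of 5 bone and osteoclast miRNAs, miR-214, miR-21 and miR-148a fell, and miR-29a and miR-29b did not pass. Of all tested miRNAs, 17.4% were called lower and 6.09% higher, and each of these markers that fell carries a recurring Ct difference. The part of these sources in the fall of miR-194 was not tested.

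The difference of miR-194 was lower in OCExoInhib under each of the 23 other settings tried, from −6.35 without OCExoInhib sample 3 to −2.75 with median centring. That of miR-192 ranged from −0.64 relative to well P22 alone to 2.37 with median centring, and took either sign. The wells themselves did not move alike, so relative to well P21, P22 or P23 alone miR-192 gave −0.44, −0.64 and 0.60, and miR-194 gave −5.55, −5.75 and −4.51. These single wells were chosen after the data were seen.

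**Figure D5:**
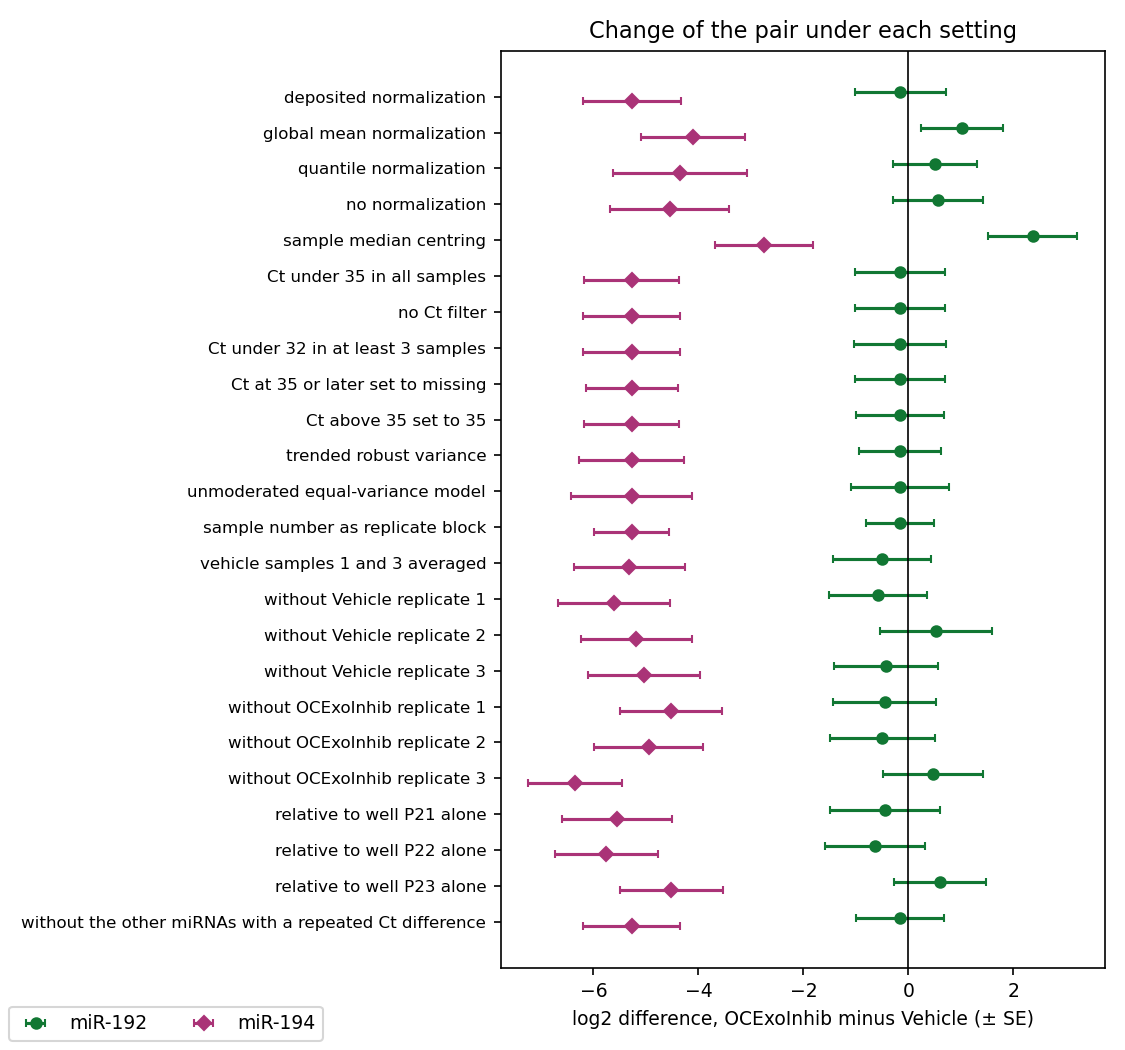
Log2 difference, OCExoInhib minus Vehicle (horizontal axis, bars ± SE), of miR-192 (green circles) and miR-194 (purple diamonds) under the deposited normalization and 23 other settings (rows). Every miR-194 value is below 0, from −6.35 to −2.75, and the miR-192 values lie on both sides of 0, from −0.64 to 2.37.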

How the data were processed

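Serum exosomal RNA was reverse transcribed and measured by SYBR Green PCR over 40 cycles, per the labels' protocols. The authors deposited raw Ct, per the file headers. Their normalized table, on a log2 scale, is described by its header as normalized to a spike-in (per the file headers), and each value is the Ct less the average of wells P21, P22 and P23. The authors' deposited table holds the fold ratio of Vehicle over OCExoInhib. No source used here states the fluorescence threshold or how empty wells were handled. No other per-sample columns were found (0).

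Members were matched by name. miRNAs with Ct under 35 in at least 3 of 6 samples were tested with limma 3.58.1 in R 4.3.3 (lmFit, eBayes, two-sided, Benjamini-Hochberg, threshold 0.05). The same fit was run on each miRNA minus miR-192. Permutation tests were exact, under Python 3.11.15. The fit was tested on simulated data. RefSeq sequences are of GRCm38.p6, and 292 of the panel's 380 sequences are identical to a RefSeq mature strand. Named miRNAs are the members, miR-215, listed markers, and the 3 miRNAs most like each member; miR-92a, miR-425, miR-652, miR-140, miR-30d and those sharing recurring differences were chosen after their values were seen. Members and lists were chosen with earlier results of these data known. Deviations from the group means correlated at 0.0587, 0.0177 and 0.117 between samples of the same number, so samples were not paired.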

Additional observations from a re-analysis of the deposited data

How the results depend on the processing

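Of the 23 alternatives, 22 kept the call of miR-194, as did 16 of 17 for miR-194 relative to miR-192. The exception was the unmoderated equal-variance model, with −5.27 (adjusted p 0.0621) and −5.11 (adjusted p 0.261); over all alternatives the limma adjusted p reached 0.0496 (quantile) for miR-194. The difference of miR-192 was above 0 under global mean (1.02), quantile (0.51) and no (0.56) normalization, under median centring (2.37, now called) and relative to well P23 (0.60). Leaving out each sample gave −0.58 to 0.53 for miR-192, above 0 without Vehicle sample 2 (0.53) and OCExoInhib sample 3 (0.47), −6.35 to −4.52 for miR-194, −6.82 to −4.07 for miR-194 relative to miR-192, and 24 to 27 changed miRNAs. The count of 27 was 16 with quantile (9 lower, 7 higher), 68 with median centring (11 lower, 57 higher), 15 with the unmoderated model, and 6 without the other miRNAs with a recurring difference, a setting chosen after seeing the data that leaves those out. Otherwise the cause was not tested. With the sample number as replicate block, miR-194 gave −5.27 (adjusted p 0.0164), miR-192 −0.16, the relative difference −5.11 and the count 25, so the block changed no call of the pair. Leaving out the other miRNAs with a recurring difference cannot move the difference of miR-194 itself, only its adjusted p. With 3 samples a group, the interval of miR-192 spans −2.00 to 1.68.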
